A study of Mus musculus with 6 samples.

Results

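The genes described here are the 5 dopamine receptor genes (Drd1a, Drd2, Drd3, Drd4 and Drd5), the genes of dopamine synthesis (Th), uptake (Slc6a3) and vesicle loading (Slc18a2), and Ppp1r1b, which encodes DARPP-32. They were chosen by symbol, and each of the 9 symbols had a single row among the 35406 gene rows of the authors' table. All 9 had test status OK, as did 23479 rows in total. RNA sequencing had been carried out on the nucleus accumbens of male C57BL/6 mice aged 11 weeks, given repeated intraperitoneal saline, or cocaine at 20 mg/kg, for 1 week and examined after 24 h of withdrawal. Each group comprised 3 pools, each holding both hemispheres of 5 mice. Whole cages of 5 received the same treatment, so that no cage spanned both groups. Without values per pool, differences between cages cannot be told apart from those of treatment.

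The table holds 1 level per gene and group, in FPKM, fragments counted per gene and scaled for transcript length and sequencing yield. It gives neither single pools nor library sizes, so that levels below are the authors' group values, without a spread. The error printed with a log2 ratio of cocaine over saline is the standard error implied by the authors' test statistic. No source used here says if that statistic was made with pools as replicates. Genes are called where the authors' q (an adjusted p) is under 0.05.

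Dopamine reaches the accumbens in axons of midbrain neurons, whose cell bodies and most of whose mRNA lie outside the tissue. Tyrosine hydroxylase (Th) carries out the rate-limiting step of its synthesis, the vesicular monoamine transporter VMAT2 (Slc18a2) loads it into vesicles, and the dopamine transporter (Slc6a3), the main target of cocaine, takes it back up. D1-like receptors (D1 and D5) couple to stimulatory G proteins and raise cAMP, and D2-like receptors (D2, D3 and D4) couple to inhibitory G proteins. In medium spiny neurons, the main neurons of the striatum, cAMP-dependent kinase turns DARPP-32 into an inhibitor of protein phosphatase 1.

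Of the 9 genes, Drd3 was the single one called, and it fell after cocaine. This is 11.1% of the genes, against 11.9% of all status OK rows (5.76% called lower and 6.1% called higher), so that the share called is near that of all genes. Among rows with a mean of at least 1 FPKM, which 7 of the 9 genes reached, the share was 14.8%. The levels of the 9 genes ran from 0.0808 FPKM for Slc6a3 to 756 FPKM for Ppp1r1b after saline, and they stood in the same order in both groups. Since FPKM is scaled to transcript length, levels can be set beside each other between genes. The neighbours in that order closest to each other after saline were Drd5 over Slc18a2 (1.12-fold) and Drd4 over Slc6a3 (1.13-fold). No error can be given for ratios of levels within a group.

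**Figure D1:**
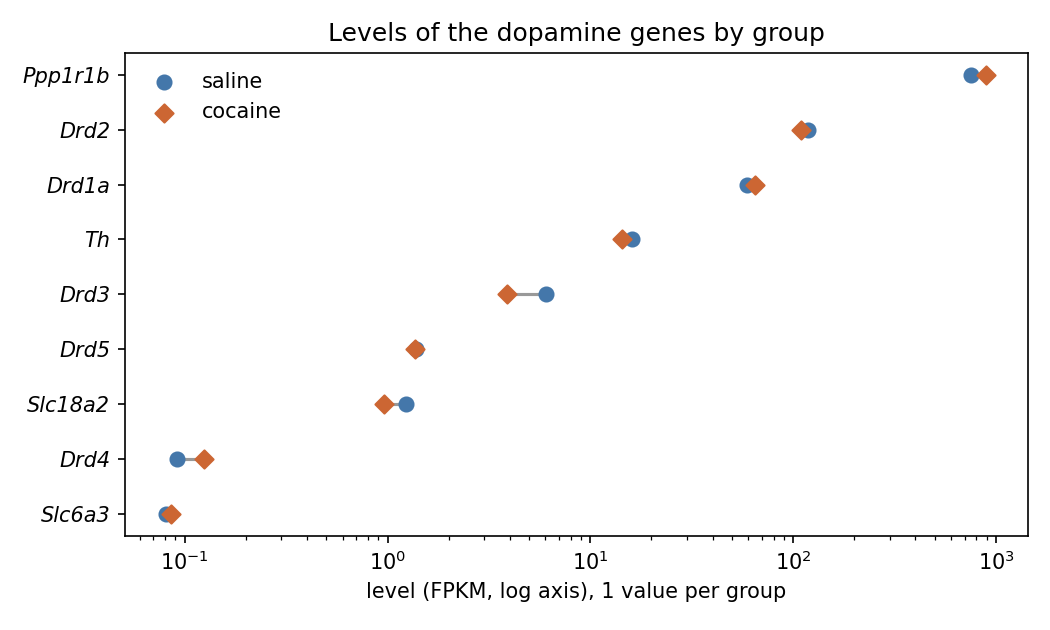
Levels of the 9 dopamine genes, with the saline value (circle) and the cocaine value (diamond) of each gene joined by a line; the axis is FPKM on a log scale, and each point is 1 group value of the authors. The gap is widest relative to the implied error for Drd3, at 6.06 and 3.88 FPKM.

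The D3 receptor gene, a D2-like receptor whose striatal expression is concentrated in the ventral part, went from 6.06 FPKM after saline to 3.88 FPKM after cocaine. The saline level was 1.56-fold the cocaine level. The log2 ratio was -0.64 ± 0.19, with a 95% interval of -1.03 to -0.26 (p = 0.000957 and q = 0.0114 in the authors' deposited table), and at a q under 0.01 it would not have been called. Its interval on chromosome 16, from 43762334 to 43823045 in the build that the submitters' processing notes call mm9 and NCBIM37, held no other row. Fewer cells expressing a gene and less RNA per cell cannot be told apart in pooled tissue, here or for the other genes.

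Drd2, the receptor of the indirect striatal output pathway and also a midbrain autoreceptor, stood at 118.2 FPKM after saline and 109.6 FPKM after cocaine. This log2 ratio of -0.11 ± 0.10 was not called (q = 0.641 in the authors' deposited table), and its 95% interval ran from 0.81 to 1.06 times the saline level. Drd4, the D2-like receptor with the lowest level, was at 0.0917 and 0.124 FPKM. Its interval ran from 0.48 to 3.85 times the saline level, so that a difference of Drd3's size would not have been detectable.

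Drd1a, the receptor of the direct pathway, was at 59.1 FPKM after saline and 64.8 FPKM after cocaine, a log2 ratio of 0.13 ± 0.11 that was not called (q = 0.573 in the authors' deposited table). The 95% interval ran from 0.94 to 1.28 times the saline level. Drd5, the other D1-like receptor, was at 1.38 and 1.37 FPKM, with an interval of 0.70 to 1.39 times the saline level. The locus of Drd5 also held the row Gm16766, at 0.0565 and 0.0524 FPKM.

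The log2 ratio of Drd3 was lower than that of Drd1a by 0.78 ± 0.22 (95% interval 0.34 to 1.22) and lower than that of Drd2 by 0.53 ± 0.22 (0.10 to 0.96). These differences combine implied errors as if the genes' estimates were independent, and Drd3 was singled out for them because it alone was called. The corresponding intervals against Drd4 (-0.47 to 2.64) and Drd5 (-0.0019 to 1.25) held 0. Drd1a and Drd2 differed in ratio by 0.24 ± 0.15, an interval of -0.05 to 0.54 that held 0.

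Summed over the 5 receptor genes, the level was 184.9 FPKM after saline and 179.8 FPKM after cocaine. Drd1a and Drd2 made up 95.9% and 97.0% of these sums. Drd2 made up 64.0% after saline and 61.0% after cocaine, and Drd1a 32.0% and 36.1%. The share of Drd3 was 3.28% after saline and 2.16% after cocaine. The level of Drd1a was 9.75 times that of Drd3 after saline and 16.7 times after cocaine.

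Ppp1r1b, encoding DARPP-32, had the highest level of the 9 genes, above that of 99.8% of status OK rows, with 756 FPKM after saline and 896 FPKM after cocaine. This was 1.19 times the saline level, a log2 ratio of 0.25 ± 0.09 (95% interval 0.06 to 0.43). It missed the threshold used here (p = 0.00792 and q = 0.0625 in the authors' deposited table), and the authors' own mark, set at a q under 0.1, included it. Of status OK rows 14.6% had a q under 0.1. Of the 9 genes 2 did, Drd3 and Ppp1r1b, and these 2 carried the mark. With p-values adjusted only over rows with a mean of at least 1 FPKM, Ppp1r1b had a q of 0.0496. The locus of Ppp1r1b (chromosome 11, 98209718 to 98219597) also held 1700003D09Rik, at 7.65 and 6.42 FPKM, and no source used here states if reads were counted by strand. The ratio of Ppp1r1b exceeded that of Drd2 by 0.35 ± 0.14 on the log2 scale (0.09 to 0.62), whereas the interval of its difference from Drd1a (-0.17 to 0.40) held 0.

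**Figure D2:**
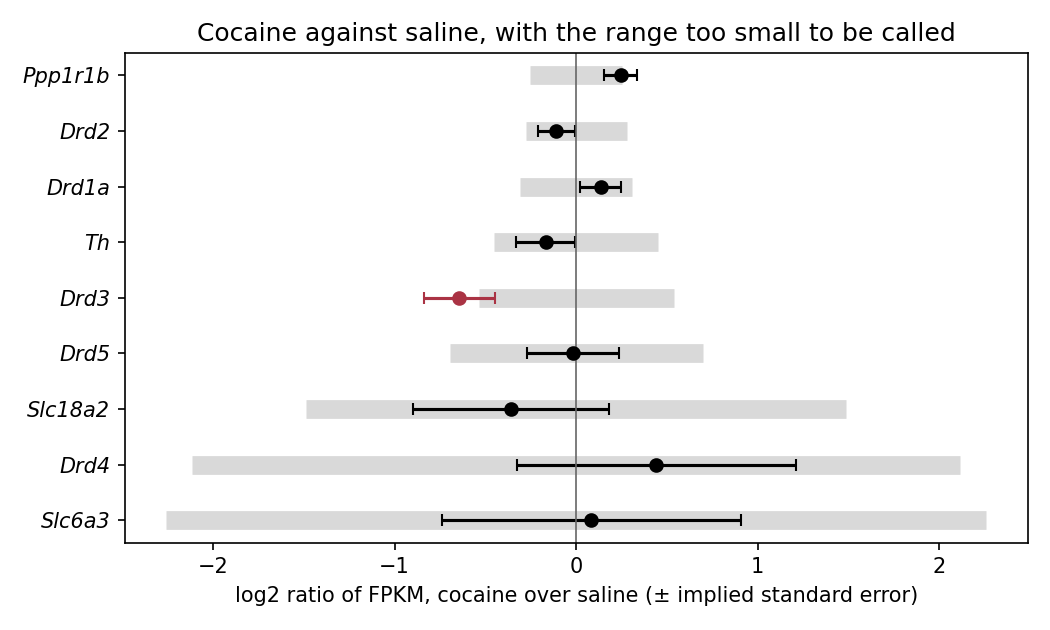
Log2 ratios of FPKM, cocaine over saline, for the 9 genes in order of level; points are the authors' group values, bars 1 implied standard error, and the grey band the log2 ratios too small to be called at that error. Drd3 (red) lies outside its band, and Ppp1r1b, at 0.25, lies at the edge of its own (0.25).

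Of the presynaptic genes, Th had the highest level, at 16.0 FPKM after saline and 14.3 FPKM after cocaine. The log2 ratio of -0.17 ± 0.16 was not called (q = 0.665 in the authors' deposited table), and the 95% interval ran from 0.71 to 1.11 times the saline level. Slc18a2 was at 1.23 and 0.960 FPKM, with an interval of 0.37 to 1.63 times the saline level. Slc6a3 was at 0.0808 and 0.0857 FPKM, near the bottom of the status OK rows (percentile 17.4), with an interval of 0.35 to 3.24 times the saline level. After saline the level of Th was 198.4 times that of Slc6a3 and 13.0 times that of Slc18a2. The interval of the Th row in the table (chromosome 7, 150078657 to 150117033) was 38377 bases long, against a span of 7217 bases for the RefSeq gene. For the other 8 genes the interval was between 4434 and 67551 bases, near the RefSeq span except for Drd5 (4978 against 3015 bases) and Drd3 (60712 against 71968 bases). Whether reads from outside Th entered its value was not tested.

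Markers of midbrain dopamine neuron cell bodies were at or near 0 in both groups, with exceptions. Foxa1, Foxa2 and En1 were listed at 0 in both groups, and Pitx3, Lmx1a, Lmx1b and En2 did not exceed 0.12 FPKM. Nr4a2 was at 0.665 and 0.792 FPKM, Ret at 0.411 and 0.381 FPKM, and Aldh1a1, which is also made by other brain cells, at 2.485 and 3.454 FPKM. The 10 markers summed to 3.68 FPKM after saline and 4.80 FPKM after cocaine, and 0 of the 6 with status OK were called or had an unadjusted p under 0.05 in the authors' deposited table. The 4 noradrenaline neuron markers, with the transporter gene Slc6a2 among them, did not exceed 0.0369 FPKM, and Dbh, which turns dopamine into noradrenaline, was at 0.0175 and 0.0332 FPKM. Of the serotonin neuron markers, Fev was at 0 in both groups, Tph2 and Slc6a4 stayed under 0.08 FPKM, and the receptor gene Htr1a, at 1.01 and 1.20 FPKM, is also made by other neurons. The cells that supplied the Th reads cannot be named from these values.

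Th and Slc18a2 shared a sequence feature that the choice of genes did not use. Each had a full cAMP response element, the palindrome TGACGTCA, within the RefSeq promoter window (build GRCm38.p6, 250 bases before the gene start and 20 after it). The windows are shown because these are the only ones of the 8 genes in the promoter table with a match; Ppp1r1b was not matched. Across 32851 windows of that length 1.73% held the motif, searched on both strands, on which it reads the same. In the lines below it is in capitals. In Th (chromosome 7, 142899976 to 142900245, minus strand) it begins 45 bases before the gene start, and in Slc18a2 (chromosome 19, 59260628 to 59260897, plus strand) it begins 4 bases before the start and spans it.
Th: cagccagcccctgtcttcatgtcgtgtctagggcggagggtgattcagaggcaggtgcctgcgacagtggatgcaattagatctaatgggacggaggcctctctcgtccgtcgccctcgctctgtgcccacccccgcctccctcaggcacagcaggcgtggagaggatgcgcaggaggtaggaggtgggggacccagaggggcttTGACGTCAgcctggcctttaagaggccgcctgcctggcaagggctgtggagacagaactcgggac
Slc18a2: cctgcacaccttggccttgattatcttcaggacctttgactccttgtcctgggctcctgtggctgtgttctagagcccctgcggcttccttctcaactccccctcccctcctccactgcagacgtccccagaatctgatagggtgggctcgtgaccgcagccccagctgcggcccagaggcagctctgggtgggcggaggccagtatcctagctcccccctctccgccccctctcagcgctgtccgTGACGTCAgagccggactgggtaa
A match is a description of these letters and says nothing about a factor's binding. The GC box GGGCGG, searched on both strands, was found in the windows of Drd2, Drd4, Drd5, Th, Slc6a3 and Slc18a2 and in 1 of the windows at the pair of annotated starts of Drd1a, and 34.1% of all windows held it. The window of Drd3 held neither motif and had a GC content of 40.4%, against 57.8% to 69.6% in those of the other genes. It lies 8206 bases inside the RefSeq gene, at an internal annotated start, so that it is not shown.

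The error of each ratio followed the level of the gene. For Drd1a a ratio of at least 1.24-fold in either direction would have been called at its implied error, for Drd2 1.21-fold, for Ppp1r1b 1.19-fold, for Th 1.37-fold and for Drd3 1.45-fold. For Drd5 the limit was 1.62-fold, for Slc18a2 2.81-fold, and for Drd4 and Slc6a3 over 4-fold. The implied error of Drd3 (0.19) was close to the median of 0.20 over 4810 genes within a factor of 2 of its level, of which 9.83% were called. Slc18a2 had a larger error than the median of such genes (0.54 against 0.41). Among 2543 genes with levels near that of Drd1a 26.2% were called, and among 100 near that of Ppp1r1b 26%, so that genes this abundant were called more often than the 11.9% of all rows.

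**Figure D3:**
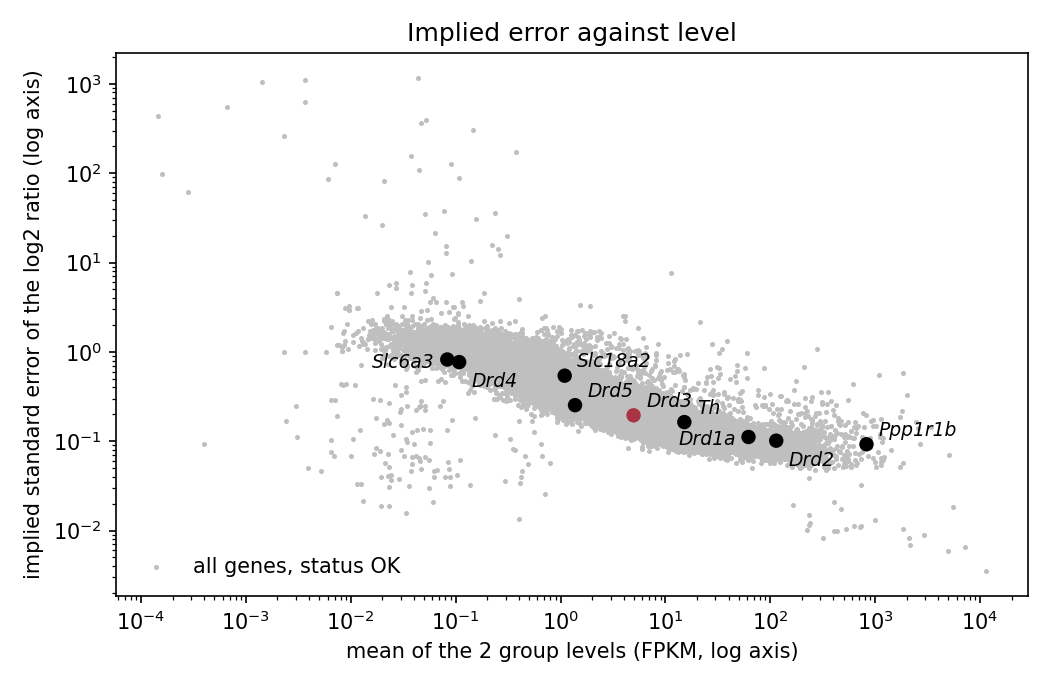
Implied standard error of the log2 ratio against the mean FPKM of both groups, each on a log axis; grey points are status OK rows above 0 in both groups, large points the 9 genes, with Drd3 in red. The errors of the 9 genes lie within the cloud and run from 0.09 for Ppp1r1b to 0.82 for Slc6a3.

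The wider dopamine pathway was described by 5 lists with 74 genes, of which 73 were matched and 72 had status OK. Of these, 15 were called (20.8%), 5 higher and 10 lower, beside 14.8% of all rows at 1 FPKM or more. Many of these genes are abundant, and the share called varied with level. It was 15.9% among genes near the level of Th, 26.2% near Drd1a and 28.8% near Drd2. Of 9 genes with status OK for the other steps of synthesis, cofactor supply and breakdown, 0 were called by the authors' q, and 2 had an unadjusted p under 0.05, Qdpr and Spr. The dihydropteridine reductase gene Qdpr, which recycles the cofactor of Th, was at 149.6 and 170.8 FPKM, and the monoamine oxidase gene Maob at 8.74 and 9.36 FPKM.

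Of the 16 matched kinases, phosphatases and relatives of DARPP-32, 4 rose and 1 fell (31.2% called), and the median log2 ratio was 0.13 beside 0.04 for all genes at 1 FPKM or more. Of all rows at 1 FPKM or more 14.8% were called, and among genes near the levels of Drd1a and Drd2 26.2% and 28.8%. The catalytic subunit genes of protein phosphatase 1, the enzyme that DARPP-32 inhibits, did not move alike. Ppp1cb rose from 41.0 to 61.8 FPKM (log2 ratio 0.59 ± 0.10, with an authors' deposited table q of 1.96e-07), and Ppp1cc rose from 68.8 to 90.1 FPKM (0.39 ± 0.10). Ppp1ca, at 166.7 and 173.1 FPKM, had a log2 ratio of 0.05 ± 0.10 and was not called. Ppp1cb shared its locus with 3 other rows, and Ppp1cc was alone. Arpp19, a small cAMP-regulated phosphoprotein that inhibits protein phosphatase 2A, rose from 308.4 to 417.4 FPKM (0.44 ± 0.08). Ppp2r2a, a regulatory subunit of phosphatase 2A, rose from 39.3 to 51.7 FPKM (0.40 ± 0.11). The casein kinase gene Csnk1e, whose product phosphorylates DARPP-32, fell from 63.1 to 48.1 FPKM (-0.39 ± 0.09). The abundant calcineurin subunit gene Ppp3ca (733 and 805.8 FPKM) and Arpp21 (924 and 963.1 FPKM) were not called. Cdk5, which phosphorylates DARPP-32 at another site, was at 46.6 and 49.05 FPKM and was not called.

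Of 19 receptor regulators and partners, 6 were called (31.6%) and all 6 fell. Among genes near the levels of Drd1a and Drd2, 26.2% and 28.8% were called. Both beta-arrestin genes, whose products bind phosphorylated receptors and end G protein signalling, were among them. The level of Arrb2, alone in its locus, fell from 70.9 to 44.1 FPKM (log2 ratio -0.69 ± 0.10, with an authors' deposited table q of 9.24e-10). Arrb1 fell from 102.1 to 65.05 FPKM (-0.65 ± 0.10) and shared its locus with 1 row, of a microRNA gene. The kinase gene Gsk3b, which lies downstream of arrestin and Akt in D2 signalling, fell from 38.3 to 29.4 FPKM (-0.38 ± 0.09). Akt1 was at 169.1 and 162.0 FPKM and was not called. Epb41l1, listed under its older symbol Epb4.1l1 and encoding a cytoskeletal partner of D2 and D3 receptors, fell by 0.37 ± 0.05 on the log2 scale. The filamin gene Flna fell by 0.33 ± 0.07 and Epb41l2 by 0.21 ± 0.08. Of the receptor kinases, the most abundant, Grk2 (listed as Adrbk1, 93.4 and 89.4 FPKM), was not called, and neither were the adaptor genes Ppp1r9b (429.7 and 416.1 FPKM) and Caly (350.9 and 353.4 FPKM).

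Of 20 genes of receptor coupling and cAMP signalling, 1 rose and 2 fell (15% called). The share was 14.8% of all rows at 1 FPKM or more and 28.8% among genes near the level of Drd2. Gnai1, an inhibitory G protein subunit, rose from 27.9 to 37.1 FPKM (log2 ratio 0.41 ± 0.12), and Gnao1, of the same G protein class, fell from 562.1 to 493.7 FPKM (-0.19 ± 0.05). Pde10a, the striatal phosphodiesterase that breaks down cAMP, fell from 206.3 to 167.3 FPKM (-0.30 ± 0.11, with an authors' deposited table q of 0.044). The stimulatory striatal subunit gene Gnal, at 206.8 and 169.5 FPKM, was not called (q = 0.0763 in the authors' deposited table). Gnas (644 and 679.2 FPKM), Gng7 (410.4 and 408.2 FPKM) and Pde1b (422.3 and 416.7 FPKM), the most abundant genes of the list that were not called, lay close to their saline levels. The implied error of Pde1b was 0.25, against 0.02 for Gng7. Of 8 genes of transporter regulation, 1 was called (12.5%). This gene, Prkcb, a protein kinase C gene, fell from 251.1 to 154.7 FPKM (-0.70 ± 0.07, with a q listed as 0 in the authors' deposited table) and shared its locus with 5 rows. Park7 (145.3 and 163 FPKM) and Rab3b (117.7 and 107.9 FPKM), among the most abundant of the rest, were not called.

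**Figure D4:**
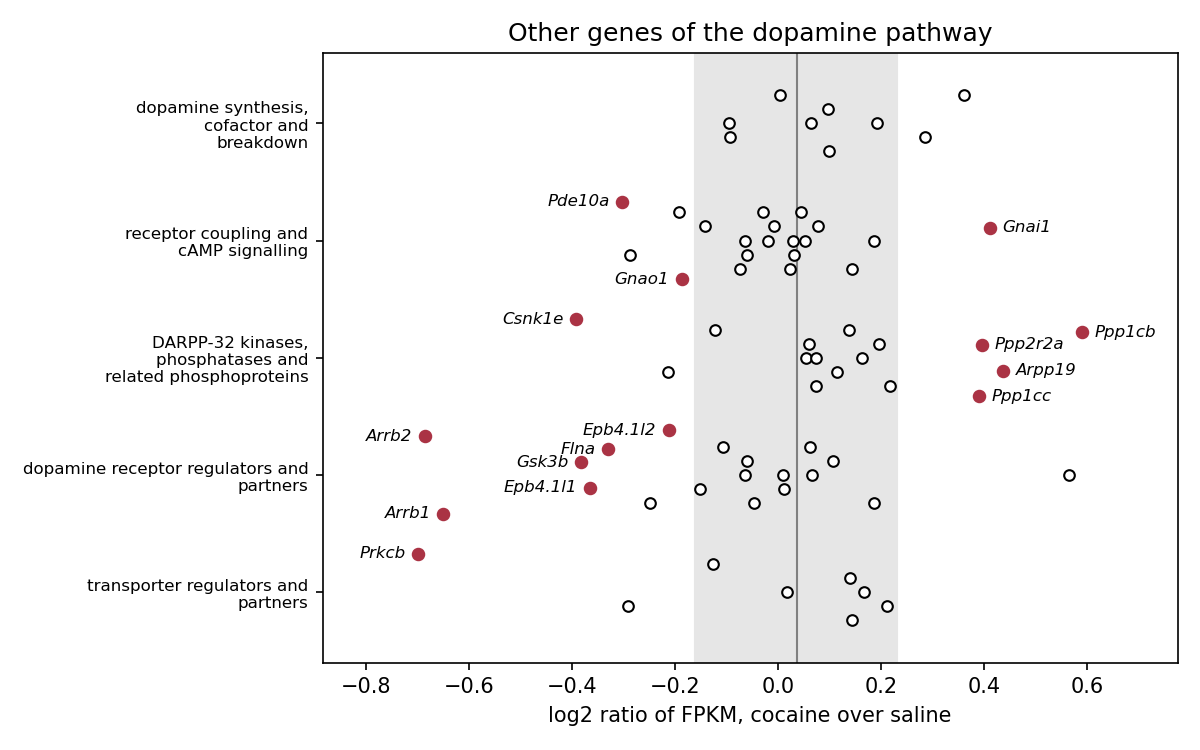
Log2 ratios of FPKM, cocaine over saline, for the status OK genes of 5 pathway lists; each point is a gene, red where the authors' q was under 0.05, and vertical offsets within a list only separate points. The grey band spans the quartiles and the line the median (0.04) of all genes at 1 FPKM or more. The called receptor regulators lie to the left, from -0.69 to -0.21, and 4 of the 5 called genes around DARPP-32 lie to the right.

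Ratios varied with transcript length across all genes at 1 FPKM or more, as measured with the longest GENCODE transcript of each symbol and 10 length classes with near-equal numbers of genes. In class 10 (6684 nt and over), 29.7% were called lower and 3.58% higher, with a median log2 ratio of -0.19. In class 3 (1406 to 2028 nt), 2.12% were called lower and 8.34% higher, with a median of 0.10. Arrb1, Flna, Gsk3b, Pde10a and the astrocyte marker Slc1a2, all called lower, belong to class 10. Drd3 (1712 nt), Arrb2 (1848 nt), Th (1950 nt) and Ppp1r1b (2001 nt) belong to class 3. In class 9, 13.8% were called lower and 4.46% higher, and it holds Epb41l1, Gnao1 and Meis2, which fell, and Ppp1cb, which rose. The part of length in these ratios was not tested.

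Markers of the neurons that carry these receptors were set beside them. Of 8 direct pathway markers, 2 were called (25%) and both rose, beside 26.2% called among genes near the level of Drd1a and 14.8% of all rows at 1 FPKM or more. For these markers the median log2 ratio was 0.22 beside 0.04 for all genes at 1 FPKM or more. Tac1, the substance P precursor gene, rose from 159.3 to 198.4 FPKM (0.32 ± 0.10), and Slc35d3, needed for D1 receptor trafficking, rose from 21.6 to 28.7 FPKM (0.41 ± 0.12). Pdyn was at 151.1 and 179.2 FPKM (q = 0.0529 in the authors' deposited table), Chrm4 at 41.8 and 45.8 FPKM, Sfxn1 at 15.3 and 17.55 FPKM and Isl1 at 5.56 and 6.85 FPKM, none of them called. Ebf1 (6.92 and 3.795 FPKM) and Eya1 (1.72 and 1.36 FPKM) had lower values after cocaine and were not called. Drd1a, with its log2 ratio of 0.13, lay below the median of these markers, but its 95% interval of -0.08 to 0.35 held that median.

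Of the 5 indirect pathway markers matched, 0 were called by the authors' q and 0 had an unadjusted p under 0.05, with a median log2 ratio of 0.03. Adora2a, the adenosine receptor gene co-expressed with Drd2, was at 116.5 and 119.3 FPKM, and Gpr6 at 65.2 and 72.0 FPKM. Penk was at 1737 and 1943 FPKM with an implied error of 0.59, so that its ratio is poorly determined. Whether direct and indirect pathway markers differed in response was not tested. Of 11 markers of both kinds of spiny neuron, 3 were called (27.3%), 1 higher and 2 lower. The share was 14.8% of all rows at 1 FPKM or more and 28.8% among genes near the level of Drd2. Meis2, a transcription factor gene, fell from 660.5 to 523.1 FPKM (-0.34 ± 0.05), as did Pde10a. Rgs9, Gng7 and Adcy5, the most abundant of the rest, were not called. The tissue label was checked against these markers, of which 10 of the 11, all but Gpr149, exceeded 50 FPKM in both groups.

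**Figure D5:**
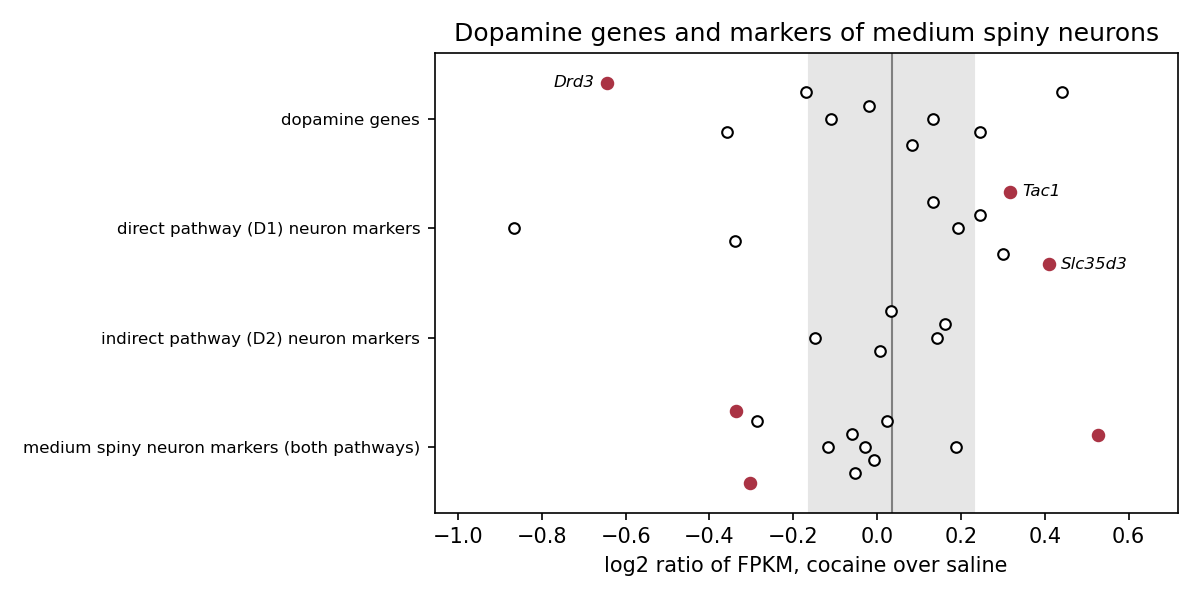
Log2 ratios of FPKM, cocaine over saline, for the 9 dopamine genes and for 3 lists of striatal neuron markers, drawn as in the plot of pathway genes, with names for the called genes of the first 3 rows. Among the 9 dopamine genes Drd3 lies apart to the left at -0.64. The called direct pathway markers Tac1 and Slc35d3 lie to the right at 0.32 and 0.41, and Ebf1 of the same list, not called, lies further left than Drd3 at -0.87.

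Of the markers of tissue next to the accumbens, 1 of 6 for cortical glutamate neurons (16.7%) and 1 of 7 for choroid plexus (14.3%) were called, shares near the 14.8% of all rows at 1 FPKM or more. Slc17a7, a vesicular glutamate transporter gene of the cortex, rose from 13.0 to 21.4 FPKM, and the other 5 cortical markers, each with a higher value after cocaine, summed to 3.93 FPKM after saline and 5.09 FPKM after cocaine. Ttr, the transthyretin gene of the choroid plexus, fell from 93.4 to 9.46 FPKM, and the other 6 choroid plexus markers summed to 7.49 and 7.07 FPKM. Most of that sum is Clic6, the 1 marker with a higher value after cocaine (4.22 and 5.49 FPKM). With Ttr, 6 of the 7 choroid plexus markers had lower values after cocaine, and the median log2 ratio was -1.15. The part of such tissue in the ratios of the dopamine genes was not tested.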

How the data were processed

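Per the submitters' processing notes, CASAVA, TopHat and Cuffdiff were run, and the build is called mm9 and NCBIM37. No source used here gives versions, annotation or read numbers, so that depth is unknown. The deposited table has the columns of Cuffdiff's gene output, per the file headers. It holds 1 FPKM value per gene and group, in which the authors combined 3 pools, and the deposited p-value, a q that can exceed 1 (a score) and the test statistic (a score). The unit FPKM is taken from that layout.

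Log2 ratios of cocaine over saline were computed without a pseudocount. The deposited test statistic had the opposite sign to the ratio in 100% of rows compared. The size of the ratio divided by that of the statistic gave the implied standard error, and 95% intervals assume a normal error. The planned test over pools was not possible, and the authors' Cuffdiff test was used, with a call at q under 0.05 (the largest p among calls was 0.00593). Interval starts were raised by 1 to count from 1. Synonyms in RefSeq served to find older symbols. Ppp3r1 and Foxp1, in rows naming several genes, and Gpr52 and Slc18a3 were not matched. All 9 dopamine genes are reported. Of each list, called genes (all up to 4, otherwise those with the 2 highest and 2 lowest ratios) and the 3 most abundant uncalled genes were named, with Tac1, Pdyn, Penk, Adora2a, Isl1, Chrm4 and Gpr6. A few genes that this rule names are not reported here. Further genes that complete a small count or a family were chosen after their values were seen. The genes and the 18 lists were chosen with earlier results of these data known. Promoter windows are from RefSeq (GRCm38.p6), and transcript lengths from GENCODE vM21 (96.3% of 14218 genes had one). Steps were tested on simulated data. Python 3.11.15, numpy 2.4.6 and pandas 2.3.3 were used.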

Additional observations from a re-analysis of the deposited data

How the results depend on the processing

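Of the 9 dopamine genes, 1 was called. At a q under 0.01 there were 0, at a q under 0.1 there were 2, and 2 with adjustment recomputed over rows at 1 FPKM or more, since Ppp1r1b then passed. Of the 15 called pathway genes, 7 were alone in their locus, among 42 such genes. Of the 12 called marker genes, 6 were alone in their locus, and 7 had a q under 0.01. The other alternatives for these counts moved none of them by over 1.5 times. The log2 ratios of the 9 genes kept their sign and moved by less than 1 implied standard error in all 36 cases, with pseudocounts of 1 or 0.1, centring on the median of all genes or summing the rows of a symbol. Much of this was fixed in advance. Summing could change nothing because each symbol had 1 row, and a pseudocount cannot change a sign. Only centring could have reversed a sign. The limit of 1 FPKM with the authors' q was added after seeing the data. No paired analysis was possible because the table holds no values per pool. Leaving out a pool was not run for the same reason. Depth is unknown, and the implied errors were largest for Slc6a3, Drd4 and Slc18a2 among the 9 genes.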

Other observations

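The lists of other cell types gave further values. The shares called were 25% for cholinergic, 14.3% for astrocyte, 28.6% for oligodendrocyte and 16.7% for endothelial markers. Of all rows at 1 FPKM or more 14.8% were called, and among genes near the levels of Drd3 and Drd1a 9.83% and 26.2%. Of 4 cholinergic neuron markers matched, Slc5a7, the choline transporter gene, rose from 2.53 to 3.68 FPKM (log2 ratio 0.54 ± 0.18), while Lhx8 (9.76 and 7.42 FPKM), Chat (6.50 and 5.81 FPKM) and Ngfr (0.667 and 0.630 FPKM) were not called. Of 7 astrocyte markers, the glutamate transporter gene Slc1a2 fell from 426 to 258.4 FPKM, and Slc1a3, Gja1 and S100b, the most abundant of the rest, were not called. Slc1a2 belongs to length class 10, in which 29.7% of genes were called lower. Of 7 oligodendrocyte markers, Cnp fell from 257.9 to 213.5 FPKM and Mbp from 1016 to 962 FPKM, the latter with an implied error of 0.01. Of 7 microglia markers, 0 were called by the authors' q and 2 had an unadjusted p under 0.05. These went in opposite directions, C1qa at 27.1 and 32.7 FPKM and C1qb at 59.7 and 49.5 FPKM. Of 6 endothelial markers, Pecam1 fell from 9.46 to 6.18 FPKM.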
